A study of Mus musculus with 14 samples.

Results

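The genes examined here encode enzymes of glycolysis and glycogen metabolism in mouse liver, with 1 regulator of the first glycolytic step. They were taken by symbol: Gckr, Pfkl, Pgam1, Pklr, Ldha, Gys2, Pygl and Gbe1, which make 8 of the 12393 genes that the array names. All probe sets with 1 of these symbols were used, 11 of 22690, and all 11 passed the filter on low values that left 13575 probe sets. Liver RNA was read on 1 array for each of 14 samples from C57BL/6J mice with diet-induced obesity (DIO). The animals of every group were DIO mice, so there was no lean group. The vehicle group (n = 5) was treated without virus. The GFP shRNA group (n = 4, numbered 1, 2, 3 and 5) received an adenovirus (Adv) carrying a short hairpin RNA against green fluorescent protein, and the Jnk1 shRNA group (n = 5) an adenovirus carrying a hairpin against Jnk1, the stress-activated kinase encoded by Mapk8. The sources used here do not give dose, route, time after injection, age or feeding state. They also leave unsaid whether each sample was 1 mouse, so the p-values reflect only the spread between samples, which may be technical. Per its title, the series concerns a knockdown of Jnk1 limited to the liver.

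Liver glycolysis breaks glucose down to pyruvate, and its flux is set mainly at a few steps, phosphofructokinase and pyruvate kinase among them. Gckr encodes a regulatory protein of hepatocytes that acts on the entry of glucose into the pathway. The same glucose 6-phosphate feeds glycogen, which Gys2 lengthens, Gbe1 branches and Pygl breaks down, and insulin and glucagon switch these enzymes largely by phosphorylation, which an RNA array does not read.

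The start sites of these genes are shown to set the letters of their promoters beside their values. Promoter windows of 300 bases, 250 before the start and 50 from it onward, came from RefSeq on build GRCm38.p6 and matched 7 of the 8 genes, with 9 windows. Windows are given 5′ to 3′ on the gene's strand, with matches to the searched motifs in capitals. The first 3 windows belong to genes with a probe set called higher with the Jnk1 hairpin, which for Pfkl was not every probe set. The other 2 belong to Pklr and Ldha, classic targets of glucose and hypoxia signalling.
Pgam1, chr19:41911621-41911920, plus strand: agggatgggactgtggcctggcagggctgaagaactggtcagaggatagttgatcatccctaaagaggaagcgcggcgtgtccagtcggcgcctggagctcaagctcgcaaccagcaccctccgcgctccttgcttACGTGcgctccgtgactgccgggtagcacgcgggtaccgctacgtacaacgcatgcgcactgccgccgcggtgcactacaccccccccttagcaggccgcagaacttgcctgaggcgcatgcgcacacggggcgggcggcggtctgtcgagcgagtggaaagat
Gbe1, chr16:70313699-70313998, plus strand: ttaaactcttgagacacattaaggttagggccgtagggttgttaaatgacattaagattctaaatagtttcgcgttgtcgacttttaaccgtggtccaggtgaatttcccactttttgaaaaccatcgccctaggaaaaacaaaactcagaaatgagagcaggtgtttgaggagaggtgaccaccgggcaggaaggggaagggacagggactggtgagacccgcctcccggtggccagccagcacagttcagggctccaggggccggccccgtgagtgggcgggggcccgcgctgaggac
Pfkl, chr10:78009758-78010057, minus strand: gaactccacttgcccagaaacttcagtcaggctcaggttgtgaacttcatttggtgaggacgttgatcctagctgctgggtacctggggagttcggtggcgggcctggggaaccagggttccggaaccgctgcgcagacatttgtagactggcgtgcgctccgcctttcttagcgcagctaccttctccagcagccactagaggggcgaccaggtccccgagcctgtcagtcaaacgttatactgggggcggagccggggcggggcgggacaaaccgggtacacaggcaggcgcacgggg
Pklr, downstream start, chr3:89136373-89136672, plus strand: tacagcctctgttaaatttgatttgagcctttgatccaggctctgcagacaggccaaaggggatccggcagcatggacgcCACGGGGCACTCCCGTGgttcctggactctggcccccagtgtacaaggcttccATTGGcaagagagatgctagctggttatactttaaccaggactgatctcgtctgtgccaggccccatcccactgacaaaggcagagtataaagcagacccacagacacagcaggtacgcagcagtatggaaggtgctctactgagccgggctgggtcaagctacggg
Ldha, upstream start, chr7:46845554-46845853, plus strand: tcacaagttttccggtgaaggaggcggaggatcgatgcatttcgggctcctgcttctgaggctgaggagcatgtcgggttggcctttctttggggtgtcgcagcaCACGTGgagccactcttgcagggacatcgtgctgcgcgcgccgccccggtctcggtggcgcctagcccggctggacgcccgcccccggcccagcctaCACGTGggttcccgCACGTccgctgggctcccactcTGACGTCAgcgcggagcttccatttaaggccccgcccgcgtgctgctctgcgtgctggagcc

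The motifs were searched on both strands. The first was the carbohydrate response element bound by ChREBP and Mlx, which was searched by its full pattern. The E-box was searched as CACGTG. The AP-1 site that Jun proteins bind was searched as TGACTCA. The response element for cyclic AMP signalling was searched as TGACGTCA. The core of the hypoxia response element was searched as ACGTG, and every E-box of the form above also holds it. The box bound by NF-Y was searched as CCAAT. For the liver factor HNF1 the core of its site was searched as GTTAAT, found in 7.10% of all windows and 1 of these 9. For the liver factor HNF4 the site was searched as CAAAGTCCA, found in 0.475% of all windows and 0 of these 9. The carbohydrate response element lay in the downstream Pklr window, which serves the liver transcript, at -170 to -154 from the start. That motif was in 0.119% of 32851 promoter windows. A reverse-strand CCAAT lay at -117 to -113 of the same window, and CCAAT was in 37.4% of all windows. The Ldha window held CACGTG at -145 to -140 and again at -48 to -43, against 7.15% of windows with this motif. It also held TGACGTCA at -12 to -5, which 1.79% of windows held, and a further ACGTG at -34 to -30. ACGTG was in 3 of the 9 windows of these genes and in 19.6% of all windows. In the Pgam1 window it lay at -114 to -110. The AP-1 site was in 0 of the 9 windows and in 5.20% of all windows. The Gbe1 and Pfkl windows held none of these motifs. A match in a window is a description of its letters and does not show that a factor binds there.

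Values are log2 of the quantile normalized intensity, and a difference is a difference of group means with its standard error (SE). Calls required an adjusted p below 0.05 in limma's test across the 13575 probe sets. The hairpin's target checked the labels: the brightest Mapk8 probe set was at 6.07 ± 0.18 (SD, n = 5) on the Jnk1 arrays. It was at 7.38 ± 0.09 (n = 4) on the GFP arrays and at 7.47 ± 0.14 (n = 5) on the vehicle arrays. Of the other Mapk8 probe sets, 1 differed from GFP shRNA by -1.12 and was called, and 1 differed by -0.12 and was not. Hepatocyte markers marked the tissue: 7 of 9 listed markers were measured, and their summed intensity was between 31070 and 35256 on every array. Array 2 of the GFP group had the highest median deposited intensity, 58.3, against 41.8 for the lowest array. The bacterial spike-in probe sets, added to every sample in the assay, read lower and more unevenly on the Jnk1 arrays, at 8.39 ± 0.32 (SD, n = 5) against 8.89 ± 0.07 (n = 4) and 8.90 ± 0.09 (n = 5) for GFP shRNA and vehicle. The 9 control arrays were at 8.78 or above, and so was Jnk1 array 2, at 8.79, while the other 4 Jnk1 arrays were lower.

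The log2 ratio of 3′ to 5′ Gapdh control signal, a sign of RNA quality, was between -0.50 and -0.40 on the Jnk1 arrays and between -0.61 and -0.52 on the GFP arrays, without overlap. On the vehicle arrays it was between -0.58 and -0.41, and its part in the results was not tested.

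Among the enzymes, Pgam1, Gbe1 and 1 Pfkl probe set were higher and Gys2 was lower with the Jnk1 hairpin, against both GFP shRNA and vehicle. Against GFP shRNA, 4 of 11 probe sets were called, 3 higher and 1 lower. Over the whole array 33.1% of probe sets were called, 17.3% higher and 15.8% lower. Per gene, represented by the probe set whose mean across the 14 arrays was highest, 3 of 8 were higher and 1 lower, against 17.7% and 16.5% of the 8027 genes tested. For Pfkl that choice rests on the Jnk1 arrays, and with the probe set of highest mean over the 9 control arrays 2 of 8 were higher and 1 lower. The median difference of the 8 genes was 0.13 and that of all genes -0.02. Against vehicle, 5 of 11 probe sets were called, 3 higher and 2 lower, where the background was 37.6%, with 18.9% higher and 18.7% lower. Per gene 3 were higher and 2 lower, against 19.3% of all genes in each direction, and 2 were higher and 2 lower with the control arrays' choice of probe set. With so few members, these counts are near the background. How many of all probe sets separate the Jnk1 arrays from every control array was not counted. The separations described below can therefore not be called particular to these genes. Both comparisons use the same Jnk1 arrays and do not support each other independently. In a bulk sample, fewer cells of a type and less RNA per cell cannot be told apart.

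**Figure D1:**
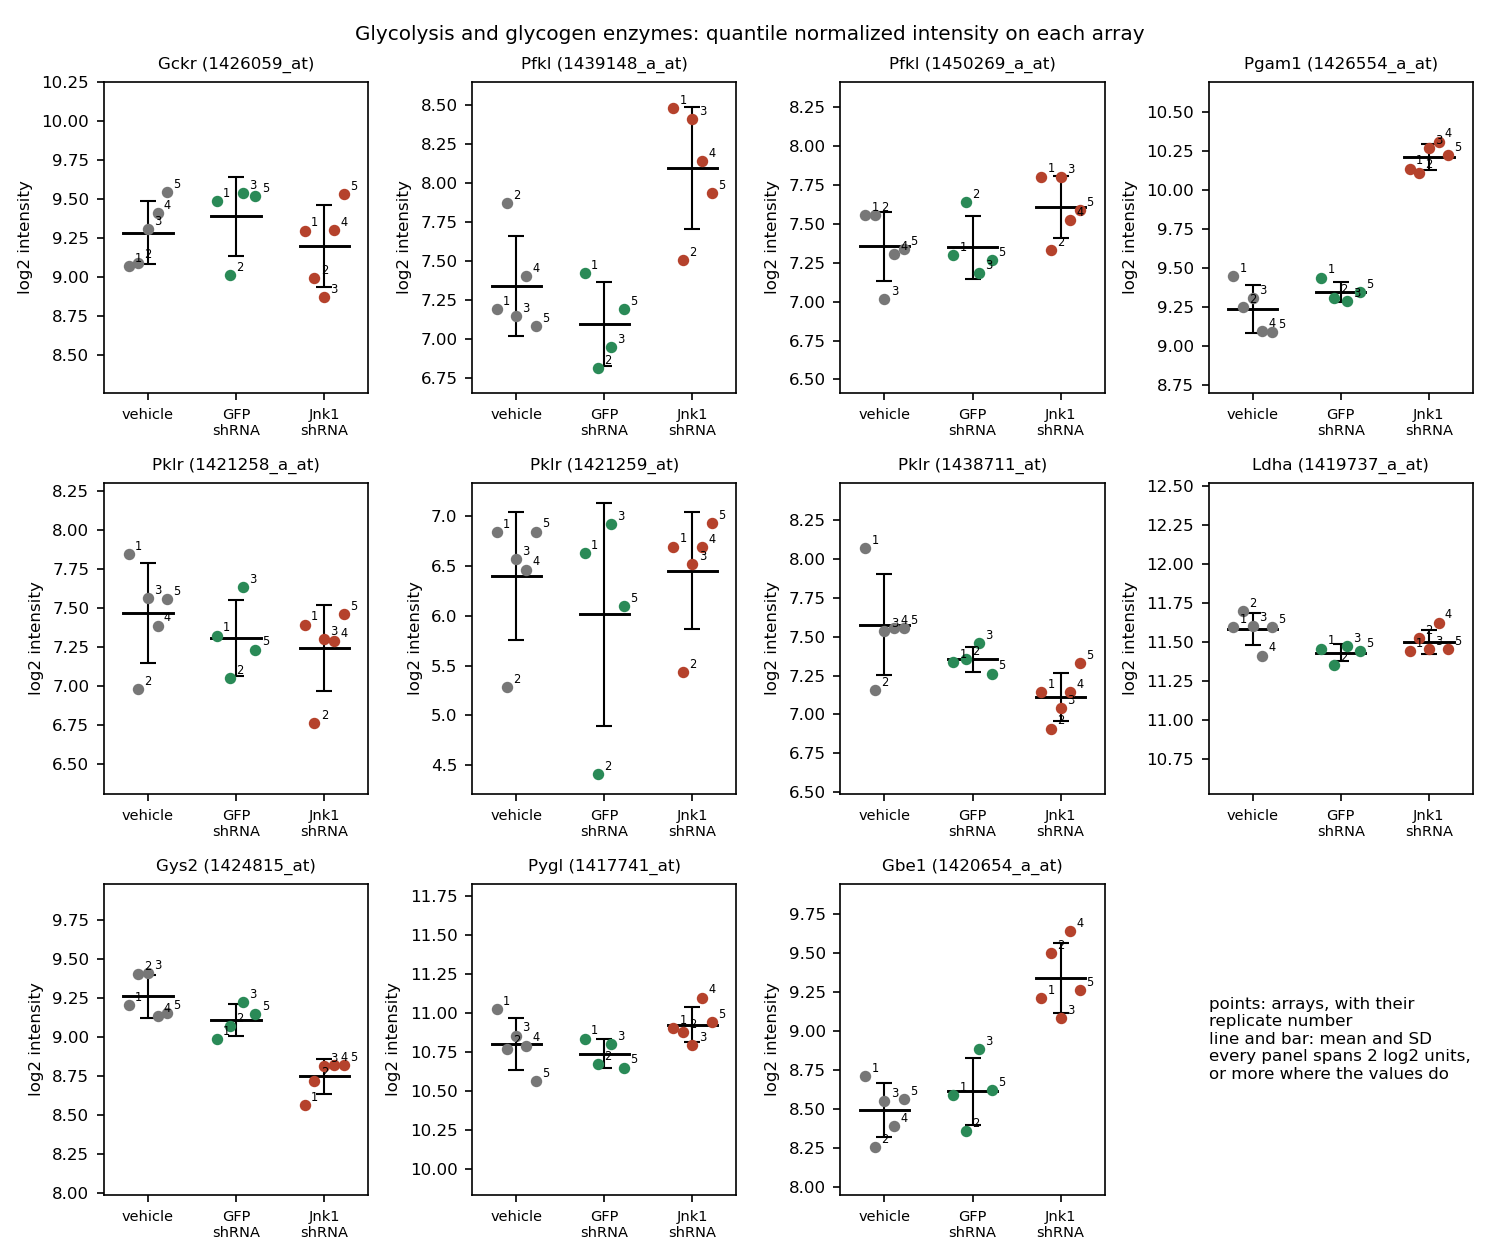
Log2 quantile normalized intensity of each of the 11 probe sets on each array, by group, with replicate numbers, the group mean (line) and the SD (bar). All 5 Jnk1 arrays lie above every control array for Pgam1 and Gbe1 and below every control array for Gys2, while the groups overlap for Gckr, Pklr, Ldha and Pygl. The share of all probe sets with such a separation was not counted.

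Gckr, the regulatory protein, was not called in any comparison. It read 9.07, 9.09, 9.31, 9.41 and 9.54 with vehicle. With GFP shRNA it was 9.48, 9.01, 9.54 and 9.52, and with Jnk1 shRNA 9.30, 8.99, 8.87, 9.30 and 9.53. The groups overlapped throughout, and the order of their means, GFP shRNA, vehicle, Jnk1 shRNA, was within their spread. The difference between hairpins was -0.19 ± 0.14 (SE), with a 95% interval from -0.50 to 0.11 (adjusted p = 0.329).

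Pfkl, the liver subunit of phosphofructokinase, gave different answers on its 2 probe sets. The probe set with the higher mean over all arrays, which was the dimmer one in both control groups, was at 7.19, 7.87, 7.14, 7.40 and 7.08 with vehicle. With GFP shRNA it read 7.42, 6.81, 6.95 and 7.19, and with Jnk1 shRNA 8.48, 7.51, 8.41, 8.14 and 7.94. Every Jnk1 array was above every GFP array, but Jnk1 array 2 was below vehicle array 2. It was 2.00-fold higher than with GFP shRNA (log2 1.00 ± 0.20 SE, adjusted p = 0.00110) and 1.69-fold higher than with vehicle (0.76 ± 0.19, adjusted p = 0.00447). The spike-in level moved with this result: adjusted for it, the differences were 0.49 (adjusted p = 0.202) and 0.23 (adjusted p = 0.571).

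The other Pfkl probe set did not pass, at 0.26 ± 0.13 against GFP shRNA, with a 95% interval from -0.02 to 0.55 (adjusted p = 0.150), and 0.26 ± 0.13 against vehicle (adjusted p = 0.130). Its Jnk1 arrays, at 7.33 to 7.80, overlapped both the GFP arrays, at 7.18 to 7.64, and the vehicle arrays, at 7.02 to 7.56. It passed when arrays were scaled to 1 median, at 0.44 (adjusted p = 0.00916) and 0.34 (adjusted p = 0.0276). Adjusted for the spike-in level it was at 0.03 (adjusted p = 0.945) and 0.01 (adjusted p = 0.971).

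Pgam1, the phosphoglycerate mutase of lower glycolysis, was the member with the smallest p. It was at 9.45, 9.25, 9.30, 9.09 and 9.09 with vehicle. With GFP shRNA it read 9.44, 9.31, 9.29 and 9.34, and with Jnk1 shRNA 10.14, 10.11, 10.27, 10.31 and 10.22. All 5 Jnk1 arrays were above all 9 control arrays, and the SD within the Jnk1 group was 0.08. The level was 1.82-fold higher than with GFP shRNA (log2 0.87 ± 0.08 SE, adjusted p = 7.58e-07) and 1.97-fold higher than with vehicle (0.98 ± 0.07, adjusted p = 5.50e-08). Adjusted for the spike-in level, the differences were 0.82 (adjusted p = 2.60e-04) and 0.92 (adjusted p = 5.62e-05). Pgam1 has many processed pseudogenes in mammals, and the files do not show whether the probes tell them from the gene.

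Pklr, which encodes liver and red-cell pyruvate kinase, had 3 probe sets, and no probe set was called against GFP shRNA. The probe set with the highest mean was at 8.07, 7.16, 7.54, 7.55 and 7.56 with vehicle. With GFP shRNA it read 7.34, 7.36, 7.46 and 7.26, and with Jnk1 shRNA 7.14, 6.91, 7.04, 7.15 and 7.33. Its order was vehicle, GFP shRNA, Jnk1 shRNA, with neighbouring groups overlapping. It was lower than with vehicle, by -0.46 ± 0.13 (adjusted p = 0.0115), which left 72.6% of the vehicle level, and differed from GFP shRNA by -0.24 ± 0.14 (adjusted p = 0.208). With the spike-in covariate the vehicle difference was -0.52 and did not pass the threshold.

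The other Pklr probe sets were not called. The next in mean intensity had the same order of group means and differed from GFP shRNA by -0.07 ± 0.17 and from vehicle by -0.23 ± 0.16 (adjusted p = 0.303). The dimmest differed by 0.44 ± 0.45 and 0.05 ± 0.42, with a 95% interval from -0.51 to 1.39 for the first. On both, array 2 was the lowest of its group in all 3 groups, at 6.98, 7.05 and 6.76 on the first and 5.28, 4.41 and 5.44 on the second for vehicle, GFP shRNA and Jnk1 shRNA. Alas2, the only measured marker of the red-cell lineage, which also expresses Pklr, was lower in both Jnk1 comparisons. The summed level of that marker list was 135 to 200 on the Jnk1 arrays, 497 to 661 with GFP shRNA and 545 to 645 with vehicle. Hba-a1, Epb42 and Slc4a1 of the list were under the filter, and the part of this change in the Pklr values was not tested.

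Ldha, which turns pyruvate into lactate, varied least, with an SD of 0.10 over the 14 arrays. It lay between 11.41 and 11.70 with vehicle, 11.35 and 11.48 with GFP shRNA, and 11.44 and 11.63 with Jnk1 shRNA. The difference between hairpins was 0.07 ± 0.06, with a 95% interval from -0.05 to 0.19 (adjusted p = 0.387). Against vehicle it was -0.08 ± 0.05 (adjusted p = 0.266). On arrays taken as deposited, without quantile normalization, this last difference was -0.30 and passed (adjusted p = 0.00489).

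Gys2, the liver glycogen synthase, fell. It was at 9.20, 9.40, 9.41, 9.13 and 9.15 with vehicle. With GFP shRNA it read 8.99, 9.07, 9.22 and 9.15, and with Jnk1 shRNA 8.56, 8.72, 8.81, 8.82 and 8.82. All 5 Jnk1 arrays were below all 9 control arrays. The level was 77.9% of that with GFP shRNA (log2 -0.36 ± 0.08 SE, adjusted p = 0.00379) and 70.1% of that with vehicle (-0.51 ± 0.08, adjusted p = 9.37e-05). The smaller of these differences depended on scaling: with arrays scaled to 1 median it was -0.14 (adjusted p = 0.463). With the spike-in covariate it was -0.30 with a larger SE of 0.13, and the call was lost (adjusted p = 0.117). Against vehicle Gys2 was still called with the covariate, at -0.45 (adjusted p = 0.0167).

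Gbe1, the branching enzyme that gives glycogen its tree shape, rose. It was at 8.71, 8.25, 8.55, 8.39 and 8.56 with vehicle. With GFP shRNA it read 8.59, 8.36, 8.88 and 8.62, and with Jnk1 shRNA 9.21, 9.50, 9.09, 9.64 and 9.26. The lowest Jnk1 array was above the highest control array. The level was 1.66-fold higher than with GFP shRNA (log2 0.73 ± 0.13 SE, adjusted p = 3.64e-04) and 1.80-fold higher than with vehicle (0.85 ± 0.12, adjusted p = 3.76e-05). With the spike-in covariate the differences were larger, at 0.89 (adjusted p = 0.00393) and 1.01 (adjusted p = 0.00106).

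Pygl, the liver phosphorylase that frees glucose 1-phosphate from glycogen, was not called. It lay between 10.56 and 11.02 with vehicle, 10.65 and 10.84 with GFP shRNA, and 10.80 and 11.10 with Jnk1 shRNA, so all groups overlapped. The difference between hairpins was 0.18 ± 0.08, with a 95% interval from 0.01 to 0.36 before adjustment (adjusted p = 0.0980), and that from vehicle was 0.12 ± 0.08 (adjusted p = 0.235).

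**Figure D2:**
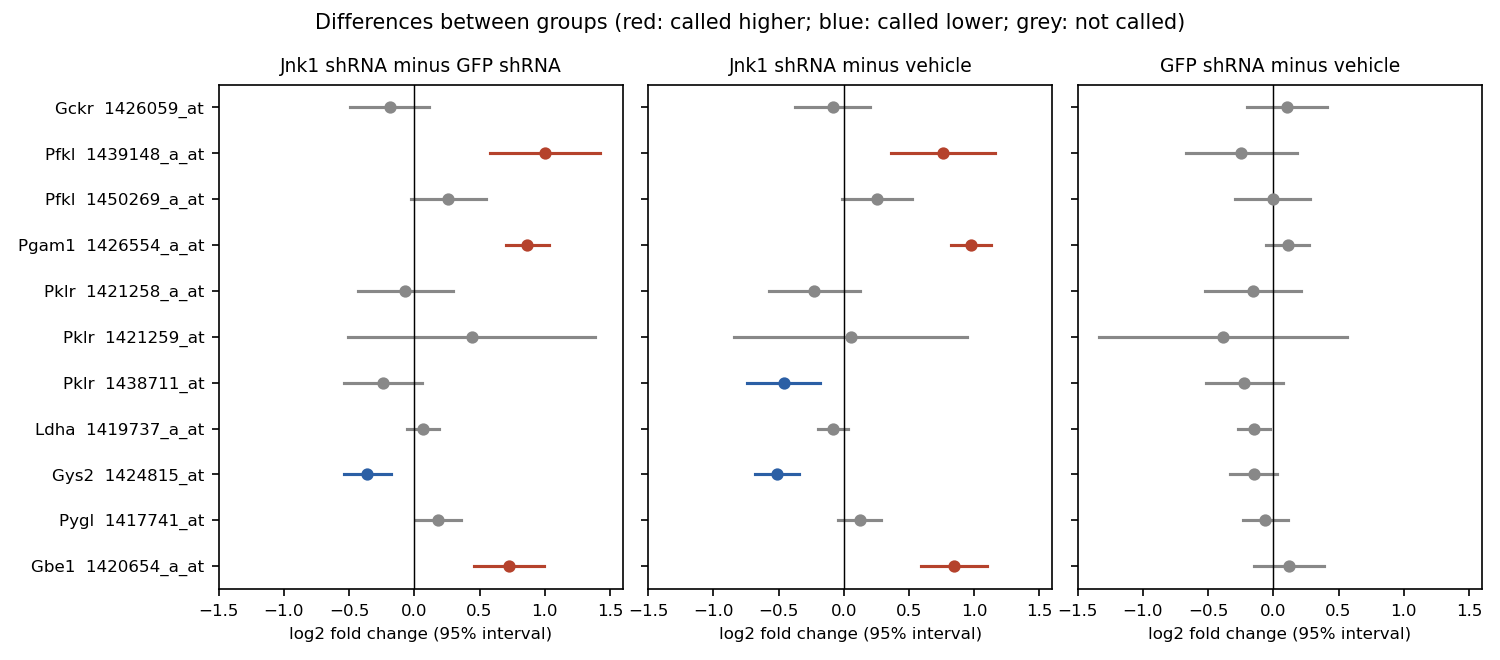
Difference of mean log2 intensity between groups (points) with its 95% interval (lines) for the 11 probe sets in the 3 comparisons, in red where called higher, blue where called lower and grey where not called. Pgam1, Gbe1 and 1 Pfkl probe set were higher and Gys2 lower in both Jnk1 comparisons, and 0 of 11 were called between GFP shRNA and vehicle.

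None of these enzymes passed the threshold between the GFP virus and vehicle. Between GFP shRNA and vehicle limma called 0 of 11 probe sets, where 2.58% of all were called, 2.05% higher and 0.530% lower (per gene 2.18% and 0.623%). At an unadjusted p under 0.05 there was 1, Ldha, at -0.15 ± 0.06 (adjusted p = 0.219). The Gys2 difference was -0.15 ± 0.08, with a 95% interval from -0.33 to 0.03, and that of Pgam1 0.11 ± 0.08, from -0.06 to 0.28. The median difference of the 8 genes was -0.11, against -0.02 for all genes.

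Ratios of probe sets were also taken within each array, on the quantile normalized values and on the deposited intensities, where a scaling factor of the array cancels. With the vehicle mean set to 0, the normalized log2 ratio of Gys2 to Pygl was 0.00 ± 0.19 (SD, n = 5) with vehicle, -0.09 ± 0.15 (n = 4) with GFP shRNA and -0.64 ± 0.14 (n = 5) with Jnk1 shRNA. Its Jnk1 range, -0.80 to -0.44, was clear of the lowest control array, at -0.31. On deposited intensities the Jnk1 mean was smaller, at -0.51 ± 0.11 (n = 5), and the range of -0.63 to -0.35 came closer to the lowest control array, at -0.28. The normalized ratio of Gbe1 to Pygl was 0.18 ± 0.19 (n = 4) with GFP shRNA and 0.72 ± 0.15 (n = 5) with Jnk1 shRNA, and its lowest Jnk1 array, at 0.60, was above the highest control array, at 0.39. On deposited intensities these were 0.26 ± 0.16 (n = 4) and 0.87 ± 0.16 (n = 5), with 0.70 on the lowest Jnk1 array and 0.46 on the highest control array. So relative to phosphorylase the synthase was lower and the branching enzyme higher on every Jnk1 array on both scales. Pfkl was set against Fbp1, its gluconeogenic counterpart, by the Pfkl probe set whose choice rests on the Jnk1 arrays. On normalized values this ratio was 0.52 ± 0.33 (n = 5) with Jnk1 shRNA and -0.22 ± 0.23 (n = 4) with GFP shRNA, without overlap. Its Jnk1 range of 0.07 to 0.91 overlapped vehicle, which reached 0.56. On deposited intensities it was 0.93 ± 0.44 (n = 5) with Jnk1 shRNA, and its lowest Jnk1 array, at 0.34, was still under the highest vehicle array, at 0.44. The other Pfkl probe set, not read as a ratio, moved about as much as Fbp1. It differed from GFP shRNA by 0.26 and from vehicle by 0.26, against 0.26 and 0.24 for Fbp1. Pklr against Ldha (-0.38 ± 0.19, n = 5) and against Pck1 (0.06 ± 0.34, n = 5) overlapped the controls.

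**Figure D3:**
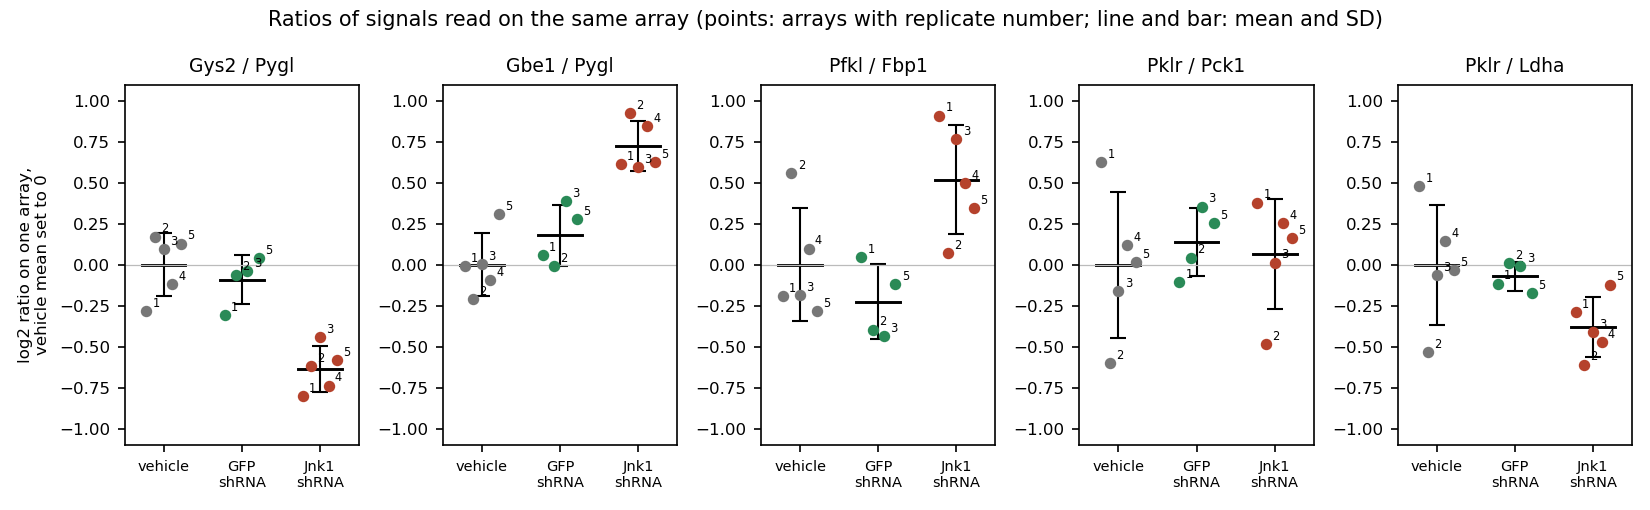
Log2 ratio of the quantile normalized intensities of 2 probe sets read on the same array, with the vehicle mean of each ratio set to 0, for each array by group (points with replicate numbers), with mean and SD. Gys2 over Pygl is below, and Gbe1 over Pygl above, all control arrays on all 5 Jnk1 arrays.

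The other genes of glucose metabolism were read through 4 lists, each gene by its probe set of highest mean. Over all genes 17.7% were called higher and 16.5% lower against GFP shRNA, and 19.3% in each direction against vehicle. Of 28 further glycolysis and fructolysis genes, 16 were tested, and 4 rose and 1 fell against GFP shRNA, with a median of 0.21 against -0.02 for all genes. Against vehicle 6 rose and 1 fell, with a median of 0.13. Tkfc, the triokinase that brings fructose carbon into glycolysis, was 2.45-fold higher than with GFP shRNA (log2 1.29 ± 0.23 SE, adjusted p = 4.87e-04). Tpi1, triose phosphate isomerase, rose by 0.38 ± 0.09 (adjusted p = 0.00314) against GFP shRNA and 0.40 ± 0.08 (adjusted p = 9.65e-04) against vehicle. Pgk1, the phosphoglycerate kinase just before Pgam1, had a difference of 0.20 ± 0.06 (adjusted p = 0.0127) that turned to -0.02 on arrays taken as deposited, and 1 of its 3 probe sets was called. Aldoa, an aldolase more abundant in muscle than in liver, was 1.55-fold higher than with vehicle (0.64 ± 0.11, adjusted p = 3.41e-04). Against GFP shRNA it rose by 0.41 (adjusted p = 0.0148), a call lost without GFP array 3, at 0.36 (adjusted p = 0.0516). Dimmer Aldoa probe sets were called higher against GFP shRNA at 0.56 (adjusted p = 6.37e-04) and 0.57 (adjusted p = 0.00699), and the dimmest, at 0.11 (adjusted p = 0.601), was not called. The 1 gene called lower was Pfkfb3, which makes the activator of phosphofructokinase, at -1.02 ± 0.33 (adjusted p = 0.0259) against GFP shRNA. That call was lost without GFP array 2, at -0.72 (adjusted p = 0.0960), GFP array 3, at -0.99 (adjusted p = 0.0565), or Jnk1 array 2, 3 or 5, at -0.93, -0.90 and -0.94. It was also lost with array weights, at -0.77 (adjusted p = 0.0536), and without the filter (adjusted p = 0.0545), and its second probe set was at 0.05 (adjusted p = 0.922). Against vehicle Pfkfb3 was at -1.35 ± 0.31 (adjusted p = 0.00272) and stayed called under every alternative. Its second probe set, at -0.49 (adjusted p = 0.255), was not called against vehicle. Adjusted for the spike-in level, Pfkfb3 was at -1.74 (adjusted p = 0.0131) against GFP shRNA and -2.09 (adjusted p = 0.00304) against vehicle. With the spike-in covariate 1 glycolysis gene rose and 1 fell against GFP shRNA, and Tkfc was at 0.67 (adjusted p = 0.125). The shares of all genes above are from the fit without the covariate.

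Of 27 further glycogen genes, 18 were tested, and 7 rose and 0 fell in each Jnk1 comparison, 6 of them in both, where 17.7% and 19.3% of all genes were higher. The medians were 0.43 and 0.37. Pygb, among the genes that rose, passed the filter only through its Jnk1 arrays. The count depends on the probe set taken: a dimmer Ppp1cb probe set was called lower, at -0.62 (adjusted p = 0.0124) and -0.59 (adjusted p = 0.0102), and so was a dimmer Ppp1cc probe set, at -0.37 (adjusted p = 0.0101) and -0.48 (adjusted p = 8.74e-04). Both genes encode catalytic subunits of protein phosphatase 1. Those named by the smallest p against GFP shRNA were Pgm1, Ppp1ca and Stbd1. Pgm1, the phosphoglucomutase that links glucose 6-phosphate to glycogen, rose by 0.54 ± 0.07 (adjusted p = 2.50e-05) and by 0.43 ± 0.07 (adjusted p = 8.27e-05) against vehicle. Ppp1ca, a further catalytic subunit of this phosphatase, which activates glycogen synthase, rose by 0.57 ± 0.08 (adjusted p = 3.13e-05) and 0.70 ± 0.07 (adjusted p = 1.42e-06). Stbd1, a glycogen-binding membrane protein, was 2.80-fold higher than with GFP shRNA (1.48 ± 0.21, adjusted p = 6.46e-05). Against vehicle it was 1.82-fold higher (0.87 ± 0.20, adjusted p = 0.00279), with overlapping arrays. Between GFP shRNA and vehicle Stbd1 differed by -0.62 and was not called (adjusted p = 0.160). Gyg, the glycogenin that starts a glycogen particle, rose by 1.36 ± 0.27 (adjusted p = 8.56e-04) against vehicle from a dim level, so its size is uncertain. The genes that rose do not all act in 1 direction: Gsk3a, a kinase that inactivates glycogen synthase, rose by 0.76 ± 0.16 (adjusted p = 0.00163), and Pygb, a phosphorylase, by 1.36 ± 0.45 (adjusted p = 0.0275). Pygb averaged 4.42 with GFP shRNA and 4.64 with vehicle, under the filter's cut, so its rise and its place in the count are uncertain. With the spike-in covariate 3 rose against GFP shRNA and 2 against vehicle, with 0 falling, while the shares of all genes above are from the fit without it. In the fit with the covariate Gyg was at 1.11 (adjusted p = 0.0836) against vehicle and Stbd1 at 0.51 (adjusted p = 0.267).

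Of 23 genes of glucose transport, glucose release and their regulators, 21 were tested. Against GFP shRNA 6 rose and 4 fell, where 17.7% and 16.5% of all genes did, and against vehicle 5 rose and 5 fell. With arrays scaled to 1 median, 7 rose and 1 fell against GFP shRNA, and 5 rose and 4 fell against vehicle. Under that scaling 72.3% of all called probe sets were higher against GFP shRNA and 56.0% against vehicle. Slc16a1, a lactate and pyruvate transporter, was 2.46-fold higher than with GFP shRNA (log2 1.30 ± 0.10 SE, adjusted p = 9.60e-08) and 2.89-fold higher than with vehicle. Gcgr, the glucagon receptor, was at 49.1% of its level with GFP shRNA (-1.03 ± 0.10, adjusted p = 1.57e-06) and 38.3% of that with vehicle. Mlx, the partner with which ChREBP binds the carbohydrate response element found in the Pklr window, rose by 0.86 ± 0.09 (adjusted p = 4.05e-06), while Mlxipl, which encodes ChREBP, differed by 0.28 and was not called (adjusted p = 0.141). Mlxipl, like Pfkfb3, Gsk3a and Pygb, was singled out after its values were seen.

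In the pentose phosphate branch, which leaves glycolysis at glucose 6-phosphate, 7 of 8 genes were tested, and the same 2 rose and 1 fell in both Jnk1 comparisons, numbers too small to set against the background shares above. Pgd, its second dehydrogenase, was 2.04-fold higher than with GFP shRNA (log2 1.03 ± 0.14 SE, adjusted p = 3.70e-05). Taldo1, transaldolase, rose by 0.71 ± 0.13 (adjusted p = 5.74e-04). H6pd, the dehydrogenase of the endoplasmic reticulum, was at -0.63 ± 0.19 (adjusted p = 0.0159), a call lost without GFP array 3, at -0.55 (adjusted p = 0.0542), and with arrays scaled to 1 median, at -0.41 (adjusted p = 0.165).

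**Figure D4:**
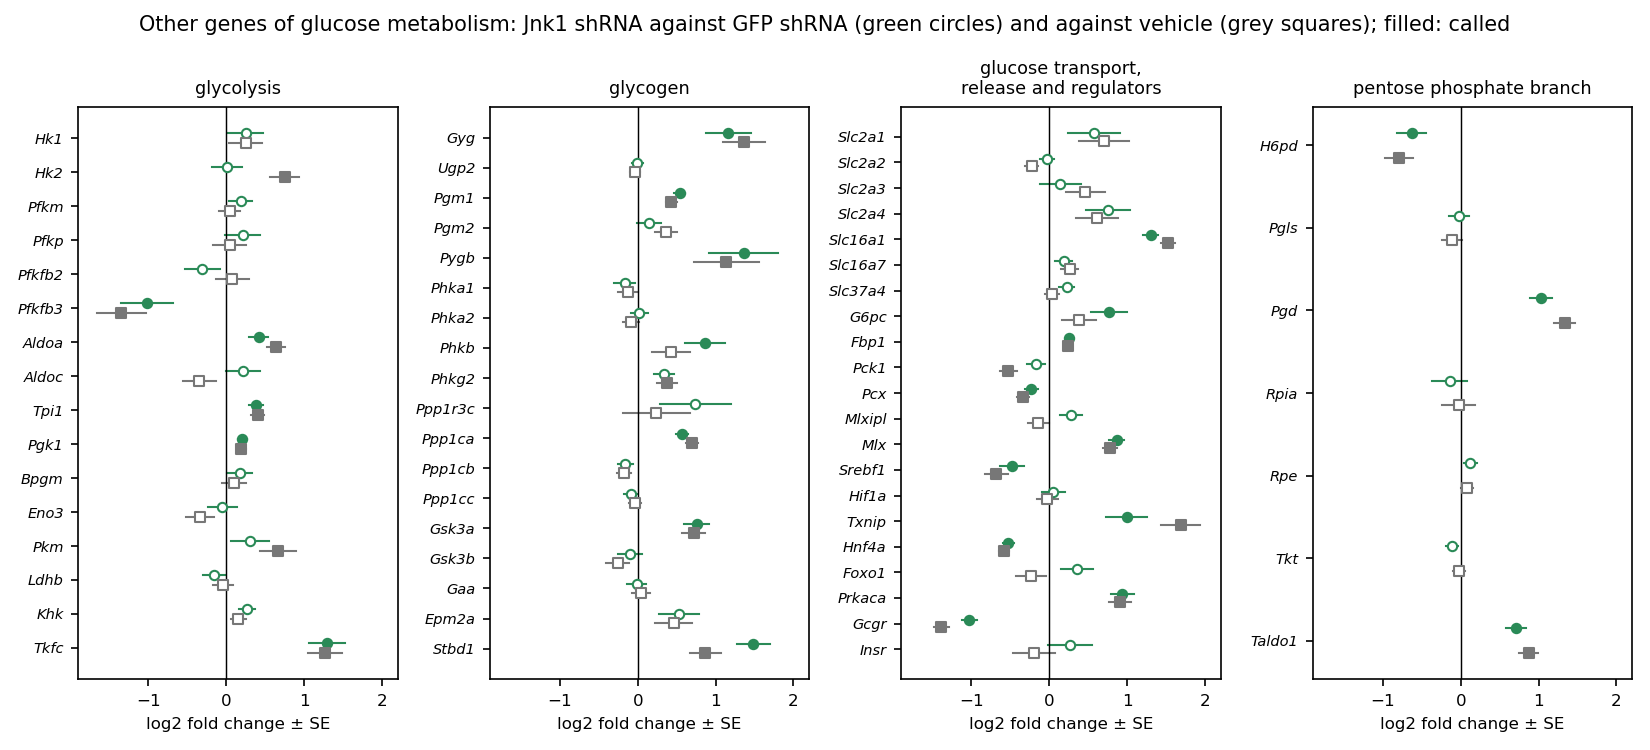
Difference of mean log2 intensity between Jnk1 shRNA and GFP shRNA (green circles) and between Jnk1 shRNA and vehicle (grey squares), with SE bars, for the tested genes of the 4 lists of glucose metabolism, filled where called. With 1 probe set per gene the glycogen list has 7 genes called higher and 0 called lower in each comparison, while the transport and regulator list has called genes on both sides of 0. Pygb of the glycogen list passed the filter only through its Jnk1 arrays.

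Markers of other liver cells differed between the groups too. Over all genes 17.7% were higher and 16.5% lower against GFP shRNA, and 19.3% in each direction against vehicle. Between GFP shRNA and vehicle 2.18% of all genes were higher and 0.623% lower. Of 7 measured macrophage markers 6 were lower and 0 higher against GFP shRNA, and 3 were lower against vehicle. Between GFP shRNA and vehicle 4 of the 7 were called, 2 higher and 2 lower with the GFP virus. Their summed intensity was 2069 to 2621 on the Jnk1 arrays, 4108 to 4584 with GFP shRNA and 2381 to 3973 with vehicle. Of 5 endothelial markers 3 were lower against GFP shRNA and 4 against vehicle, and of 4 measured stellate markers 2 were lower in each. Hepatocyte markers were lower for 1 of 7 against GFP shRNA and 3 of 7 against vehicle. Nkg7, the 1 measured T and NK cell marker, went the other way. It averaged 12.9 with vehicle, 49.1 with GFP shRNA and 58.0 with Jnk1 shRNA, and was called higher against vehicle with both hairpins. Measured neutrophil and B cell markers were not called, and Retn, the 1 measured adipocyte marker, was lower against vehicle only. Ckm was the 1 skeletal muscle marker of 6 that was measured, it was not called, and Acta1, Myh1, Myh4, Tnnt3 and Mb were under the filter. The part of these shifts in the enzyme values was not tested. On Jnk1 array 2, whose spike-in level was within the control range, Pgam1 at 10.11, Gbe1 at 9.50 and Gys2 at 8.72 were outside all control arrays, and Pfkl (its brighter probe set) at 7.51 was within them. This is 1 array, on which Pklr probe sets were far from the rest of the group. The part of the spike-in level in its values was not tested.

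**Figure D5:**
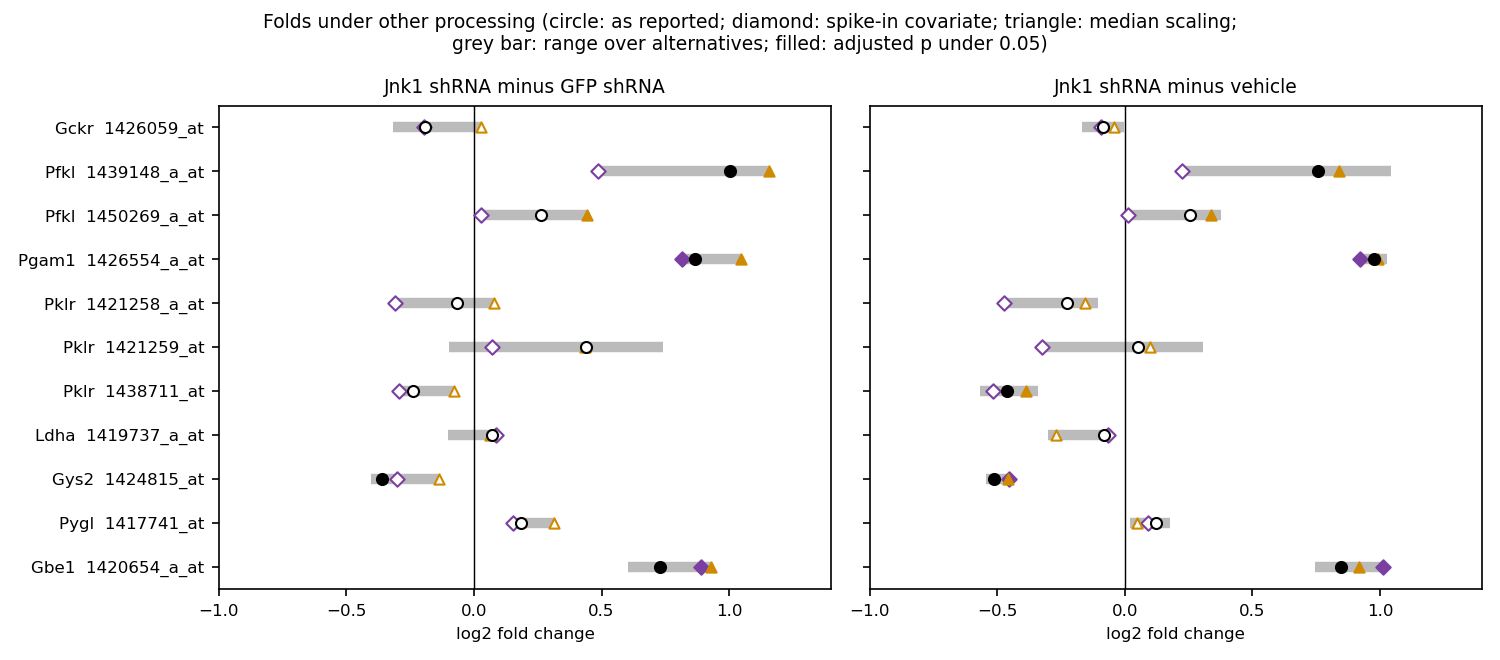
Difference of mean log2 intensity for the 11 probe sets as reported (circles), adjusted for the spike-in level (diamonds), with arrays scaled to 1 median (triangles) and over all alternatives (grey bars), filled where the adjusted p was under 0.05. Pgam1 and Gbe1 are filled under all 3 settings in both comparisons, Gys2 only against vehicle, and the brighter Pfkl probe set is open with the spike-in covariate.

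For each gene the 2 genes with the nearest centred profile over the 14 arrays were found by the root mean square (RMS) difference of log2 values. Only named genes whose own SD over the arrays was at least 0.29, the median of the tested probe sets, were searched. Pgam1, with an SD of 0.47 over the arrays, was nearest to Necap1 and Fis1, each at an RMS difference of 0.10. Gbe1 (SD 0.44) was nearest to Chpt1 at 0.14 and Ssr2 at 0.15. Pfkl (SD 0.54) was nearest to Wbp2 at 0.19 and Pnkd at 0.20, and Gys2 (SD 0.25) to Edem1 and Denr, each at 0.13. Pklr (SD 0.29) was nearest to Pltp at 0.16 and Zfp106 at 0.18. For Gckr (SD 0.24, with Trnt1 at 0.21 and Jchain at 0.22) the distance was near the gene's own SD. For Ldha (SD 0.10, with Pik3c3 and Them4 at 0.22) and Pygl (SD 0.14, with Pacrgl at 0.21 and Prelid3b at 0.22) it was above it. Genes that varied as little as these were left out of the search. The distances therefore do not show whether other profiles were like theirs. The arrays of a group share their treatment, and the distances carry no test.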

How the data were processed

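Per the labels' protocols, biotin-labelled material was made from total RNA, which a column kit had purified from pulverized liver. The deposited values are linear intensities per probe set of a 1-colour Affymetrix array, which the files show scaled to a common trimmed mean. The software that made them is not given in the sources used here. Array medians spanned 0.48 on the log2 scale, so the deposited intensities were quantile normalized, floored at the 5th percentile (2.01) and log2 transformed. The 64 control probe sets and the 40% with the lowest mean (under 28.4) were left out, which left 13575. Without detection calls, background has no direct bound. Symbols came from the platform annotation: 20393 probe sets had 1 symbol, 691 several and 1606 none, and only the first were named.

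Group means were fitted to all 14 arrays with limma 3.58.1 in R 4.3.3 (eBayes with an intensity trend, 11 residual and 4.94 prior degrees of freedom), and p-values were adjusted over 13575 probe sets by the Benjamini-Hochberg method. The fit was tested on simulated data. The number of arrays limits the precision. Named were all probe sets of the 8 genes, the 3 called genes of each list with the smallest p per comparison, the 2 nearest profiles of each gene, and Mapk8. Lists and genes were chosen with earlier results of these data known. Other scalings, filters, a pseudocount of 16, variance models, array weights, adjustment for the spike-in level, the replicate block and leaving out each array were tried as alternatives. Chosen after seeing the data were ratios of deposited intensities, gene counts by the control arrays' brightest probe set, and Pfkfb3 under each alternative. The labels do not say that replicate numbers pair the samples. Same-numbered deviations correlated from -0.24 to 0.12 over 13 pairs, with 2 over 0.1, and differently numbered ones from -0.15 to 0.30 over 52 pairs, with 7 over 0.1. Such correlations over the whole array cannot exclude a pairing or a batch shared by number.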

Additional observations from a re-analysis of the deposited data

Results flagged for a closer look

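Of 33 sets of values (11 probe sets in 3 groups), 4 held an array far from the others, where chance flags about 1 in 20 sets. Probe sets of 1 gene read the same samples, so the sets are not independent and this comparison is rough. Gckr was at 9.01 on GFP array 2, against 9.48 to 9.54 on the other 3. The Pklr probe set of middle mean intensity was at 6.76 on Jnk1 array 2, against 7.29 to 7.46 on the other 4. The dimmest Pklr probe set was at 5.28 on vehicle array 2, against 6.46 to 6.85, and at 5.44 on Jnk1 array 2, against 6.52 to 6.93. All 4 were low values on arrays numbered 2, and whether equal numbers share a pairing or batch is not stated and was not settled. With the arrays numbered 2 left out of all groups, an alternative chosen after seeing the data, the second Pfkl probe set passed, at 0.43 (adjusted p = 0.0202, limma) against GFP shRNA and 0.38 (adjusted p = 0.0220) against vehicle.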

How the results depend on the processing

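Against GFP shRNA 4, against vehicle 5 and between the controls 0 of the 11 probe sets were called, where 33.1%, 37.6% and 2.58% of all were. The share of all probe sets called is given for this main fit only. Leaving out each array in turn gave 4 to 4, 5 to 5 and 0 to 0, and the replicate block 4, 5 and 0. Adjusted for the spike-in level, the counts were 2 and 3, and in that fit the Pfkl, Pklr and smaller Gys2 differences did not pass. The spike-in level differed between the Jnk1 and control groups, so that fit also had larger SEs for the Jnk1 differences. Of 882 alternative values for the 33 probe set differences, 871 stayed on their side of the threshold, where uncalled values could change sign, 5 lost the call, 6 gained it and 0 called values changed sign. The brightest Pgk1 probe set turned to -0.021 against GFP shRNA and -0.060 against vehicle on arrays as deposited, and to -0.031 against vehicle with median scaling. Median scaling moved the median of all probe sets against GFP shRNA from -0.01 to 0.09 and the share of calls that were higher from 52.3% to 72.3%, and between the controls it moved that median to -0.11. Without GFP array 2, 5 glycolysis genes rose and 0 fell against GFP shRNA. Differences of probe sets near the filter are limited by background, which these intensities do not separate from signal.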
